A study of Arabidopsis thaliana with 4 samples.

Results

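The 4 genes described here encode chaperones that plants make in larger amounts when heated: AT5G48570, AT1G07400, AT2G29500 and ATHSP22.0. They were taken by name from the platform's probe annotation, and each had 1 probe that is assigned to no other gene. They are 4 of the 9335 probes with 1 named gene, among 22575 probes in all. The choice used no threshold on the values, but an earlier summary of these data had singled out these genes from a longer heat shock list.

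Chaperones keep other proteins from clumping and help them fold. In heated plants, heat shock factors switch on several chaperone classes together. Small heat shock proteins bind unfolding proteins and hold them. The HSP70 and HSP90 machines refold or mature their clients with the help of co-chaperones such as HOP proteins, p23, AHA1 and immunophilins. AT5G48570 encodes ROF2, an FKBP-type immunophilin that is induced by heat and belongs to the HSP90 co-chaperones. AT1G07400 and AT2G29500 encode class I small heat shock proteins of the cytosol. ATHSP22.0 (AT4G10250) encodes a small heat shock protein of the endoplasmic reticulum (ER).

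Roots of nai1-1, an Arabidopsis thaliana mutant of the basic helix-loop-helix transcription factor gene NAI1 that lacks ER bodies, were set against Col-0 wild-type roots on 4 two-colour Agilent arrays that each carried both genotypes. ER bodies are spindle-shaped ER compartments of Brassicaceae. Both genotypes were 20 days old and had shared a culture plate of MS medium (1% sucrose, 0.5% gellan gum) under constant light at 22 °C. No treatment was given, and heat was not part of the design. Each genotype was a pool of 3 plants, and nai1-1 is a single mutant line. The nai1-1 RNA carried Cy5 on arrays 2 and 3, and Cy3 on the other two. Whether each array had its own pool of plants is not given in the labels, so the p-values cover only array-to-array spread, which may be technical.

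Values are given on the log2 scale as nai1-1 over Col-0, so 0 stands for equal levels and a positive value for a higher level in nai1-1. Means are over 4 arrays (n = 4), and the standard error (SE), the 95% interval and the adjusted p come from a limma fit over all probes. A gene passed the test when its p, adjusted by the Benjamini-Hochberg method over all 22575 probes, was under 0.05. The direction rests on the extraction software's convention of Cy5 over Cy3, which the submitters do not state, and under the opposite convention every sign below would turn. With this convention PYK10, the main beta-glucosidase of root ER bodies, was at -2.01 ± 0.11 (SE) and NAI2, an ER body component, at -2.81 ± 0.11. NAI1 itself had log2 ratios of -0.77, -1.21, -0.21 and -0.60 on arrays 1 to 4 (mean -0.70, adjusted p = 0.259). How the nai1-1 lesion affects its own transcript is not in the labels, so this is no check of them. A ratio carries no level, so neither the abundance of a transcript nor the purity of the root tissue can be read from these data. In bulk roots, fewer cells of a type and less RNA per cell cannot be told apart.

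Of the 4 genes, AT5G48570 had the highest mean ratio and the closest agreement between arrays relative to its size. Its log2 ratios were 1.17, 0.76, 0.77 and 0.96 on arrays 1 to 4. All 4 arrays lay clearly above the Col-0 level, with array 1 the highest. The mean of 0.92 ± 0.08 (SE) is a 1.89-fold higher level in nai1-1, with a 95% interval of 1.61 to 2.20-fold. Only 13 of the 9335 named probes, itself included, had a mean at or above it. On single arrays, between 0.26% and 2.04% of the named probes were as high or higher.

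AT5G48570 nevertheless lay just outside the threshold over all probes (limma adjusted p = 0.0511). In that fit 0 of the 4 genes passed, and over all probes 0.0133% were called higher in nai1-1 and 0.496% were called in either direction. Before adjustment 2 of the 4, AT5G48570 and AT1G07400, were higher at p under 0.05, where 5.59% of all probes were. The fit includes 1016 probes with an exact 0 among their deposited values, and none of the 4 genes is one of them. Without those probes AT5G48570 passed (limma adjusted p = 0.00752) at the same ratio, while 0.617% of the remaining probes were called higher and 3.61% in either direction. AT5G48570 was the only one of the 4 genes to pass there. That call was lost on averaging arrays 1 with 2 and 3 with 4 into 2 replicates (adjusted p = 0.0653), and also without array 2 (0.0653) or without array 3 (0.0595). After averaging, 0.0186% of probes were called higher, and 0.0603% without array 2 or without array 3.

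**Figure D1:**
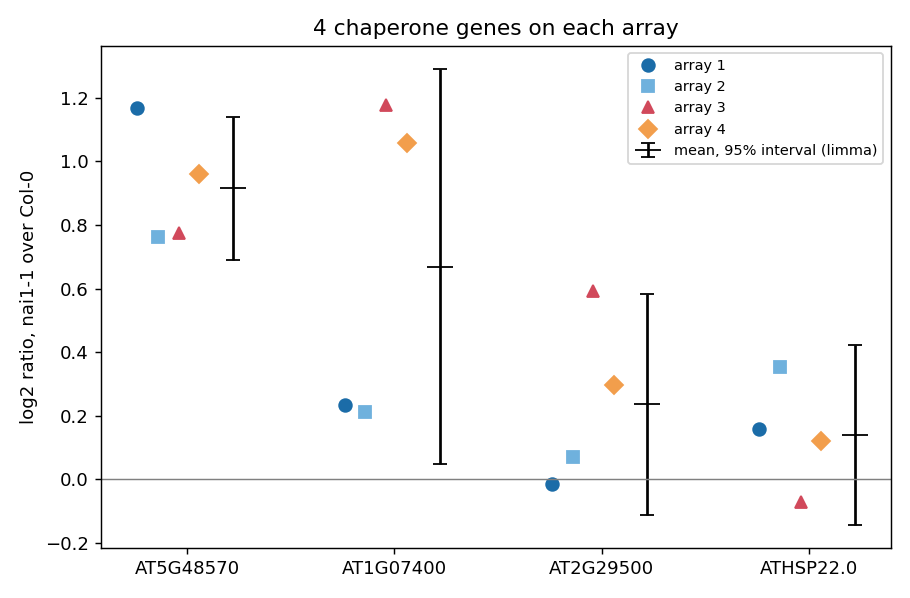
Log2 ratio of nai1-1 over Col-0 (vertical axis) for each of the 4 genes, with 1 point per array and, beside the points, the mean of 4 arrays with the 95% interval of the limma fit. AT5G48570 lies between 0.76 and 1.17 on every array, AT1G07400 splits into a low and a high pair, and the intervals of AT2G29500 and ATHSP22.0 include 0.

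The cytosolic small heat shock protein gene AT1G07400 was also above Col-0 on 4 of 4 arrays, but its values formed pairs. Its log2 ratios were 0.23 and 0.21 on arrays 1 and 2, and 1.18 and 1.06 on arrays 3 and 4. The pair means were 0.22 and 1.12, and the pairs did not overlap. Each pair holds both dye orientations, and the dye effect of this probe was 0.02. The mean of 0.67 ± 0.23 (SE), a 1.59-fold higher level, did not pass (adjusted p = 0.357), and its 95% interval of 0.05 to 1.29 was wide. On arrays 3 and 4, 0.17% and 0.11% of the named probes were as high or higher, against 29.4% and 26.8% on arrays 1 and 2. Arrays 3 and 4 also had the smaller spread over all probes, with median absolute deviations of 0.22 and 0.19, against 0.39 and 0.33 on arrays 1 and 2. The labels name nothing that sets arrays 1 and 2 apart from arrays 3 and 4, and what lies behind the pairs was not tested.

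AT2G29500, of the same class as AT1G07400, had the same split between the pairs of arrays, at lower values. Its log2 ratios were -0.01, 0.07, 0.59 and 0.30 on arrays 1 to 4. Arrays 1 and 2 sat at the Col-0 level and arrays 3 and 4 above it. The mean of 0.24 ± 0.13 (SE) did not pass (adjusted p = 0.527), with a 95% interval from -0.11 to 0.58. AT1G07400 was above AT2G29500 on 4 of 4 arrays, by 0.43 ± 0.29 (SD). Class I small heat shock protein genes are similar in sequence. Probe sequences were not used here, so signal shared between them was not assessed.

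ATHSP22.0, the ER member, stayed nearest to the wild-type level. Its log2 ratios were 0.16, 0.35, -0.07 and 0.12 on arrays 1 to 4. It was above Col-0 on 3 of 4 arrays, and its high and low arrays were not those of the 2 cytosolic genes. The mean of 0.14 ± 0.10 (SE) did not pass (adjusted p = 0.633). Its 95% interval ran from -0.14 to 0.42, which as a fold is 0.91 to 1.34.

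Ordered by mean, AT5G48570 came first, then AT1G07400, AT2G29500 and ATHSP22.0. AT5G48570 lay above AT2G29500 on 4 of 4 arrays, by 0.68 ± 0.41 (SD), and above ATHSP22.0 on 4 of 4 arrays, by 0.78 ± 0.26. Its lowest array, at 0.76, was higher than the highest array of either gene, at 0.59 and 0.35. AT5G48570 and AT1G07400 did not differ beyond their spread, at 0.25 ± 0.61 (SD), with AT5G48570 higher on 2 of 4 arrays. AT2G29500 and ATHSP22.0 did not either, at 0.10 ± 0.43. These differences were described and not tested.

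The genes were then set among other chaperone genes. Lists of heat-response genes were written from general knowledge, but with earlier results of these data known. The counts below are therefore a description and no independent support. The lists hold 94 genes, of which 24 had a probe with 1 named gene, the 4 genes included. Of these 24, 0 rose and 0 fell over all probes with limma. At an unadjusted p under 0.05, 11 were higher and 1 was lower, where 5.59% and 7.31% of all probes were. The mean ratio was above 0 for 21 of the 24, against 55.1% of the named probes. Their median was 0.35, against 0.02 over all named probes, and 12 were higher on 4 of 4 arrays, against 12.9% of the named probes. Leaving the 4 genes out, 17 of 20 were above 0 and the median was again 0.35.

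Without the probes holding an exact 0, 4 of the 24 rose and 0 fell with limma, where 0.617% of probes were called higher. Beside AT5G48570 these were AT5G54660, AT3G12050 and Hop3 (adjusted p from 0.0218 to 0.0468). Averaging arrays 1 and 2 and arrays 3 and 4 as 2 replicates left 0 of the 4 calls. In that setting 0.0186% of probes were called higher. The list of heat shock factors and regulators, with 27 genes, had 0 genes with a named probe and was not analysed here.

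**Figure D2:**
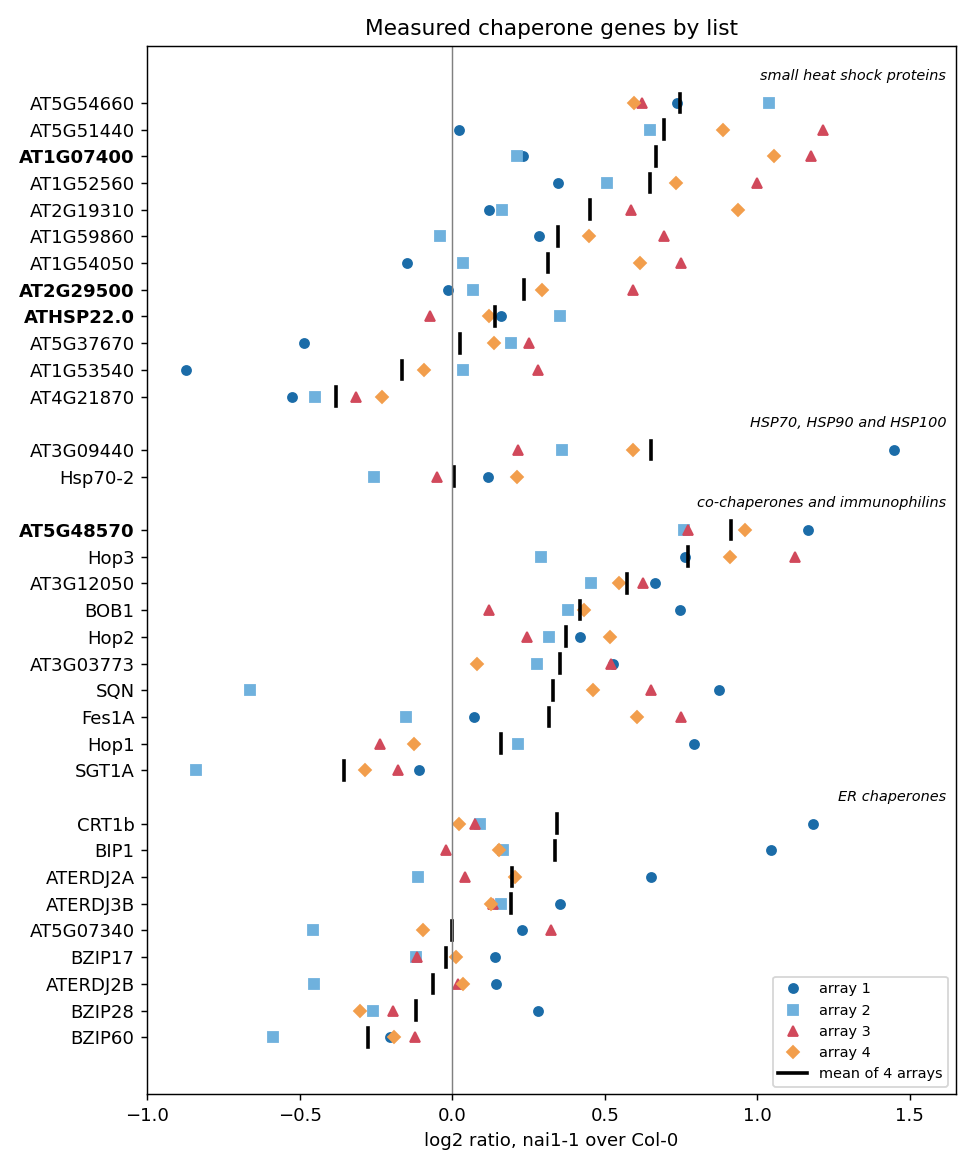
Log2 ratio of nai1-1 over Col-0 (horizontal axis) for the 24 measured heat-response genes and the 9 measured genes of the ER list. Each gene has 1 row, with a point per array and a bar at the mean of 4 arrays. The 4 genes described here are in bold. Right of 0 lie 21 of the 24 heat-response means and 5 of the 9 in the ER list, which also holds transcription factors.

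AT5G48570 belongs to the co-chaperone list, of which 10 of 26 genes were measured. The median was 0.36, and 9 of the 10 means were above 0. Hop3, one of the HOP proteins that link HSP70 to HSP90, was at 0.77 ± 0.16 (SE), with 0.76, 0.29, 1.12 and 0.91 on arrays 1 to 4. Its relative Hop2 was at 0.37 ± 0.08. AT3G12050, an AHA1-type activator of HSP90, had similar values on every array, at 0.66, 0.46, 0.62 and 0.55 (mean 0.57 ± 0.08, adjusted p = 0.0974).

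The other co-chaperones were lower or less even. BOB1, a NudC-domain chaperone, was at 0.42 ± 0.10, and AT3G03773, of the p23 type, at 0.35 ± 0.11. SQN, the cyclophilin 40 and thus an immunophilin like AT5G48570, was at 0.33 ± 0.25, with -0.66 on array 2 and between 0.46 and 0.87 on the others. Fes1A, an HSP70-binding protein, was at 0.32 ± 0.19. Hop1, the other measured HOP gene beside Hop2 and Hop3, was at 0.16 ± 0.19 and above Col-0 on 2 of 4 arrays. SGT1A, a co-chaperone tied to immune receptors, was the exception at -0.35 ± 0.14, below Col-0 on 4 of 4 arrays. None of these passed over all probes.

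Of the 19 small heat shock protein genes listed, 12 were measured, with a median of 0.33. Besides AT1G07400 the highest means were those of AT5G54660, of the HSP20-like family, at 0.75 ± 0.11, and of AT5G51440 and AT1G52560, which encode mitochondrial forms, at 0.69 ± 0.19 and 0.65 ± 0.13. AT5G54660 had log2 ratios of 0.74, 1.04, 0.62 and 0.59 on arrays 1 to 4. AT5G51440 varied more, at 0.02, 0.65, 1.22 and 0.89.

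The class I relatives of AT1G07400 and AT2G29500 had means on both sides of 0. AT1G59860 was at 0.35 ± 0.15, while AT1G53540 was at -0.16 ± 0.16 with -0.87 on array 1. Further genes of the list were not assigned to class I here. Of these, AT2G19310 was at 0.45 ± 0.17, and AT1G54050, a class III form, at 0.31 ± 0.19. AT4G21870, also not assigned to class I, was at -0.38 ± 0.09 and below Col-0 on 4 of 4 arrays. None of these genes passed.

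The split between pairs of arrays in AT1G07400 and AT2G29500 prompted a count in the other 10 measured genes of the small heat shock protein list. These are not all of class I, and the count was chosen after the values were seen. Arrays 3 and 4 were both above arrays 1 and 2 for 6 of these 10, where 16.6% of the named probes had that order. AT4G21870, which is 1 of the 6, was below Col-0 throughout, at -0.52 and -0.45 on arrays 1 and 2 and at -0.31 and -0.23 on arrays 3 and 4. The opposite order held for 2 of the 10, ATHSP22.0 and AT5G54660, and for 20.1% of the named probes. The 10 genes had a median of 0.13 in their means over arrays 1 and 2, and of 0.59 in those over arrays 3 and 4. Among the 10 co-chaperones 2 had that order, Hop3 and Fes1A, and the medians of 0.45 and 0.47 were close. AT5G48570 did not have it, with pair means of 0.96 and 0.87.

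**Figure D3:**
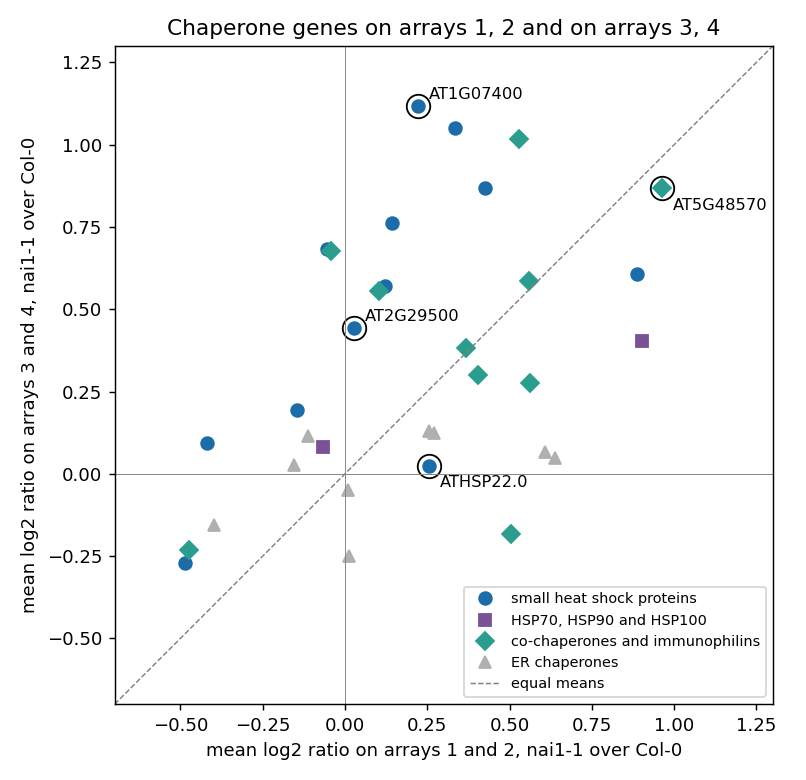
Mean log2 ratio of nai1-1 over Col-0 on arrays 1 and 2 (horizontal axis) and on arrays 3 and 4 (vertical axis). There is 1 point per measured gene of the heat-response and ER lists, with the 4 genes circled and a dashed line at equal means. AT1G07400, at 0.22 and 1.12, and AT2G29500, at 0.03 and 0.44, lie above the line, and AT5G48570, at 0.96 and 0.87, lies close to it.

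HSP70 genes were represented by 2 of the 22 large chaperones listed. AT3G09440, a cytosolic HSP70, was at 0.65 ± 0.17, with 1.45 on array 1 and between 0.21 and 0.59 on the other arrays. Hsp70-2 was at 0.01 ± 0.08. None of the HSP90 and HSP100 genes listed, among them HSP101, which works with small heat shock proteins in dissolving aggregates, had a named probe.

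Because ATHSP22.0 works in the ER, it was set beside 9 measured genes, of 19 listed, that encode ER chaperones or factors of the unfolded protein response. Their median was 0.00, 5 of the 9 were above 0, and 0 passed. BIP1, the HSP70 of the ER, was at 0.34 ± 0.17, with 1.05 on array 1 and values between -0.02 and 0.17 on the others. ATERDJ3B, a J-domain partner of BiP, was at 0.19 ± 0.08, and ATERDJ2A, another ER J-domain protein, at 0.20 ± 0.11. BZIP60, BZIP28 and BZIP17, which are transcription factors and not chaperones, were at -0.28 ± 0.11, -0.12 ± 0.13 and -0.02 ± 0.08. Of the other measured genes in this list only ATERDJ2B was below 0, at -0.06 ± 0.11. The measured heat-response genes include no heat shock factors, so the ER list and the heat-response lists differ in make-up.

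Marker genes of other tissue or cell types were set beside these values. The 4 measured photosynthesis genes of 10 listed, used as markers of shoot tissue, had means between -0.18 (LHCB4.1) and -0.09 (SBPASE), and 0 passed. The 2 measured root hair expansins of 4 root hair genes listed, EXPA7 and EXPA18, were at 0.59 ± 0.09 and 0.38 ± 0.14 and above Col-0 on 4 of 4 arrays. Their median of 0.48 was higher than the 0.35 of the 24 heat-response genes. EXPA7 passed without the probes holding an exact 0 (limma adjusted p = 0.0357), as AT5G48570 did. Whether root hair cells had a part in the chaperone ratios was not tested.

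Genes with the most similar values were found by the root mean square difference of the 4 log2 ratios over all named probes. For AT5G48570 the nearest was AT4G13710, at 1.12, 0.75, 0.75 and 0.73 on arrays 1 to 4 (difference 0.12), followed by AT2G34620 and AT2G47830 (0.22 each). For AT1G07400 the nearest was AT5G52390, at 0.29, 0.17, 1.14 and 1.04 (difference 0.04), followed by AT5G05250 (0.09) and XTH26, a xyloglucan endotransglucosylase gene (0.14). None of these 6 is in the heat-response lists, which cover only 24 of the 9335 named probes, so little overlap could be seen.

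The 4 genes lie on 4 chromosomes (assembly TAIR10.1, whole gene spans): AT5G48570 on chromosome 5 from 19690461 to 19693845, AT1G07400 on chromosome 1 from 2274926 to 2275783, AT2G29500 on chromosome 2 from 12633065 to 12634120, and ATHSP22.0 on chromosome 4 from 6370338 to 6371372. Among their nearest protein-coding neighbours 1 was measured, AT2G29510 beside AT2G29500. It had log2 ratios of -0.05, -0.15, -0.24 and -0.19, below Col-0 on 4 of 4 arrays, whereas AT2G29500 was above Col-0 on 3 of 4.

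**Figure D4:**
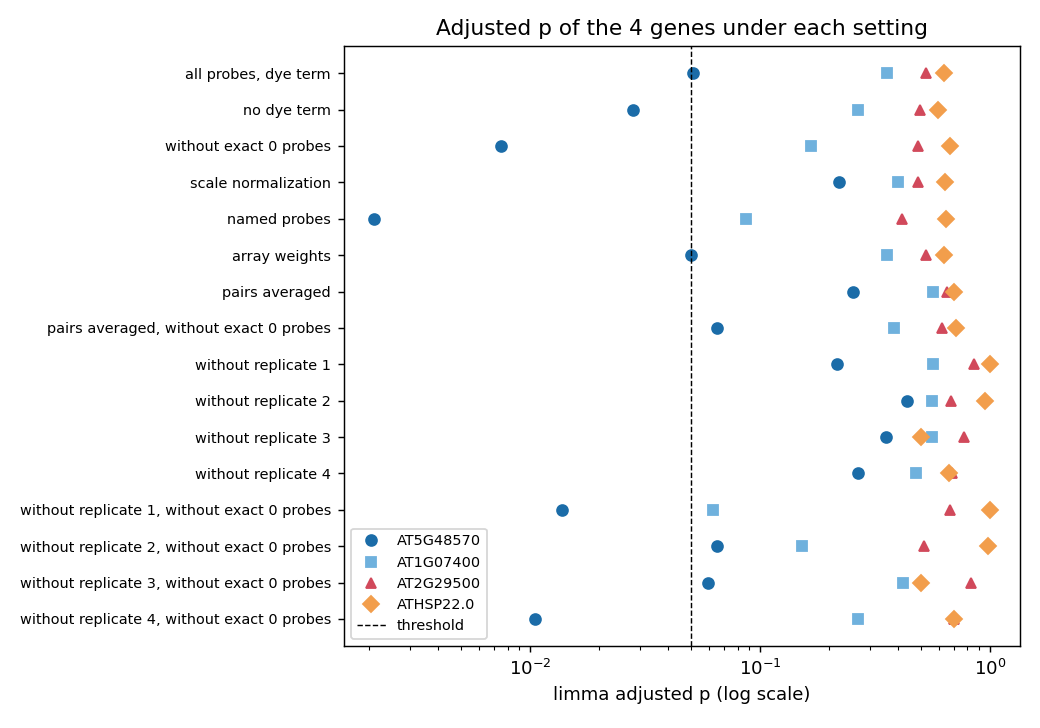
Limma adjusted p (horizontal log axis) of the 4 genes under the fit on all probes and each of 15 alternatives (rows), with a dashed line at the threshold of 0.05. AT5G48570 ranges from 0.00211 to 0.437 and passes under 5 alternatives, and the other 3 genes pass under 0.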

How the data were processed

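The deposited values are log10 ratios of the 2 dyes for every probe on every array. Per the submitters' processing notes the software was Agilent Feature Extraction 7.1. How it corrected background and dye bias is not given in the sources used. Intensities and detection flags were not used here. The number of arrays limits the precision. Over named probes, arrays of opposite orientation had Pearson r from -0.75 to -0.33 as deposited, and over every probe from -0.144 to 0.132, with arrays 2 and 4 above 0. Arrays were taken as not turned before deposition, on the named probes. They were converted to log2 and turned to nai1-1 over Col-0 by the dyes in the labels, with no further normalization. Array medians were within 0.001 of 0.

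Probes were named through the platform annotation and a RefSeq gene table for TAIR10.1 (9317 of 9335 matched). limma 3.58.1 in R 4.3.3 fitted genotype and dye terms to all 22575 probes (lmFit, eBayes, two-sided). The fit was also run on simulated data with independent arrays and no dye effect. That run could not check dye effects or pairs of arrays. Named were the 4 genes, up to 8 measured genes of each heat-response list and up to 4 of the ER and shoot lists by smallest p. Named too were the 3 nearest patterns of AT5G48570 and of AT1G07400, measured neighbours, and PYK10, NAI2 and NAI1. The root hair genes were added as marker genes. AT5G37670 and CRT1b, named in the closing section, and Hop1, BZIP28, BZIP17 and ATERDJ2B were added after their values were seen. Members and lists were chosen with earlier results of these data known. Alternatives were the dye term, exact 0 values, array scale and weights, named probes only, averaged pairs and leaving out each array. A planned search of promoter motifs was not run.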

Additional observations from a re-analysis of the deposited data

Results flagged for a closer look

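By Dixon's test, none of the 4 genes had a single array standing away from the rest. Among the 42 genes looked at, 3 did, each on array 1, and chance flags about 1 in 20. AT5G37670, a small heat shock protein gene, was at -0.49 on array 1 and between 0.14 and 0.25 on the others. ATERDJ3B was at 0.35 on array 1 and between 0.13 and 0.16 on the others. CRT1b was at 1.18 on array 1 and between 0.02 and 0.09 on the others. The test marked 5.73% of 9247 named probes that hold no exact 0, and array 1 was the one marked for 257 of these 530.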

How the results depend on the processing

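All 4 genes kept a positive mean with scale normalization and without any 1 array; the other settings leave these means as they are. AT5G48570, at 0.92 with an adjusted p of 0.0511, also passed at 0.92 with no dye term (0.0282), without exact 0 probes (0.00752) and over named probes only (0.00211). It did not pass with scale normalization (0.221), array weights (0.0504), averaged pairs (0.255) or without any 1 array (0.217 to 0.437, values 0.86 to 0.97). Without exact 0 probes and 1 array its p ran from 0.0105 to 0.0653 and passed for 2 of the 4 arrays, at 0.86 without array 1 and 0.97 without array 4. AT1G07400 ranged from 0.43 without array 3 to 0.91 without array 2, AT2G29500 from 0.11 to 0.37 and ATHSP22.0 from 0.03 to 0.25, and none passed. Of the 24 heat-response genes, 0 passed over all probes, 3 with no dye term, 4 without exact 0 probes, 7 over named probes only, and 0 to 3 without exact 0 probes and 1 array. These last settings called 205 to 939 probes in all, of which 13 to 307 were higher. Every call among the 24 was higher in nai1-1. Of the fitted probes, 0.0133% were called higher over all probes and 0.27% with no dye term. The share was 0.617% without exact 0 probes and 1.6% over named probes only. Over all probes the calls numbered 112, against 394 with no dye term, 778 without exact 0 probes, 570 over named probes, 121 for averaged pairs without exact 0 probes, and 0 with scale normalization, averaged pairs or any array left out of the fit on all probes. The cause of these changes was not tested. Every ratio pairs the genotypes within an array, and the replicate numbers mark arrays of 1 comparison, so no fit with a replicate block could be made.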
